A study of Mus musculus with 4 samples.

Results

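The serpins are the gene family described here: all 65 genes whose symbol starts with Serpin, a clade letter from a to i and a digit, out of 25124 genes listed. They were measured by RNA sequencing of airway epithelial cells that had been sorted from mouse lung. The mice were wild type on a C57BL/6 background and all had been treated with house dust mite (HDM), an allergen that provokes airway inflammation. One group had received an inhibitor of stearoyl-CoA desaturase 1 (SCD1), an enzyme that makes monounsaturated fatty acids, and the other dimethyl sulfoxide (DMSO), the usual solvent control. Both groups consisted of 2 libraries, each made from 5 ng of total RNA. The labels give no age or sex of the mice, no name, dose or timing of the inhibitor, and do not say whether a library came from 1 animal or from a pool. Mice without HDM were not analysed here, so every comparison is between inhibitor and DMSO under HDM. Epithelial markers were high and even, with sums of 99086 to 105042 normalised reads per library over 7 genes led by the cadherin Cdh1. Markers of alveolar type 2 cells, which are not airway cells, were high as well, with sums of 230890 to 405190 beside 429896 to 690251 for airway club cells.

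Serpins are proteins that mostly block serine proteases. An exposed strand, the reactive centre loop, serves as bait, and once the protease cuts it the loop folds into the body of the serpin and carries the trapped enzyme with it. Members of the extracellular clades restrain clotting, fibrinolysis, complement and leukocyte proteases, clade b members work mostly inside cells, and a few, such as the collagen chaperone Serpinh1, inhibit nothing. In the lung the family is best known for alpha-1-antitrypsin, the liver product that protects alveoli from neutrophil elastase, and in human airway epithelium SERPINB2 is known as a gene induced by interleukin-13.

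The transcripts of the serpin family did not differ detectably between the groups. Of the 65 members, 14 were abundant enough to test, which required a mean of at least 25.8 normalised reads over the 4 libraries (1 read in every 1000000 of the mean library total). None of these 14 passed limma's test at a Benjamini-Hochberg adjusted p under 0.05 over all 13810 genes tested, where 1.79% of all genes passed, 1.36% higher and 0.427% lower with the inhibitor. None had an unadjusted p under 0.05 either, against 14.1% of all genes. DESeq2 and edgeR on the recovered reads also called 0 members and gave none an unadjusted p under 0.05. DESeq2 gave no adjusted p for Serpina9, Serpina3g, Serpina3n, Serpinb1a, Serpinb8, Serpind1, Serpinf1 and Serping1, so it could not call them. The family was led by Serpine2, Serpinb6a and Serpinh1, which together held 73.0% to 76.0% of all serpin reads in each library. All serpins together took 0.0527% and 0.0545% of the normalised reads with DMSO and 0.0518% and 0.0520% with the inhibitor.

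The hinge of the reactive centre loop is shown for 7 tested members because it is the stretch that moves when a serpin traps a protease, and because it differs between members. In inhibitory serpins this stretch is rich in alanine, which has a small side chain and lets the loop slide into the body of the protein. The sequences are 30 bases (10 codons) of the reference coding sequence (GENCODE M21, mouse build GRCm38, which is mm10), read 5′ to 3′ on the coding strand. Capitals mark GCN codons, which encode alanine.

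Serpinb6a: gaggagggcacagagGCTGCAGCTGCTaca

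Serpinb6b: gaggagggcacagagGCTGCAGCTGCCact

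Serpinb9: gaggaaggcacagagGCTGCAGCAGCCtct

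Serping1: gagtcaggggtggaaGCAGCTGCAGCCtct

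Serpine2: gaagatggaaccaaaGCTtcgGCAGCAaca

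Serpinf1: gaagaggggGCAggaagcagccccagccca

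Serpinh1: accgagggcaacccctttgaccaagacatc

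In this stretch 9 tested members had 4 GCN codons, 2 had 3 (Serpind1 and Serpine2), Serpinf1 had 1 and Serpinh1 had 0. Each stretch lay within a single coding exon. For Serpine2 it lay at chr1:79799469-79799498 (minus strand, exon 7), for Serpinb6a at chr13:33918170-33918199 (minus, exon 8) and for Serpinb6b at chr13:32978201-32978230 (plus, exon 7). For Serpinb9 it lay at chr13:33015693-33015722 (plus, exon 8) and for Serping1 at chr2:84765697-84765726 (minus, exon 8). For Serpinf1 it lay at chr11:75410266-75410295 (minus, exon 8) and for Serpinh1 at chr7:99346267-99346296 (minus, exon 5). The GCN count alone does not tell whether a serpin inhibits proteases.

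Most of the family had few counted reads or none in these cells. Besides the 14 tested members, 14 had reads but lay below the floor, and 37 had 0 reads in every library. Of all 25124 genes listed, 13810 were tested, 3397 had reads but lay below the floor and 7917 had 0 reads in every library. A count of 0 in a library allows up to 3 reads, which is 2.87 to 3.15 normalised reads here, and this limit covers counting error only. The large clades a and b, named after alpha-1-antitrypsin and ovalbumin, held most of the members without reads, with 18 of 26 and 18 of 28. Of clade a, 25 genes lie in 1 cluster on chromosome 12 (103614786 to 104414329) and 1, Serpina7, on X. Clade b is split between clusters on chromosome 1 (12 genes, 106861173 to 107610484) and chromosome 13 (15 genes, 32842092 to 34002794), and 1 member, Serpinb9h, had no match in the annotation. Of the 5 tested clade b genes, 4 lay in the chromosome 13 cluster.

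**Figure D1:**
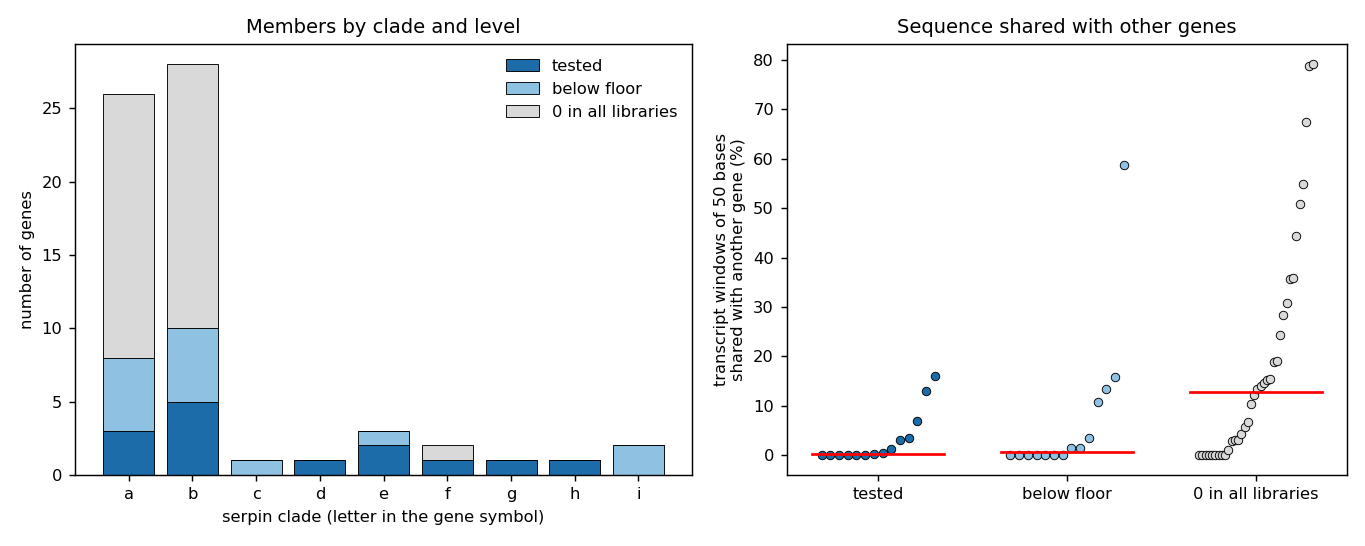
Left, number of serpin genes in each clade (x axis) by level: tested, below the floor of 25.8 normalised reads, or 0 in all 4 libraries. Right, percent of each gene's transcript windows of 50 bases that also occur in a transcript of another gene (y axis) by the same levels, 1 point per gene with the median as a red line. The genes at 0 hold the highest values, up to 79.3%, with a median of 12.8% against 0.278% for the tested genes.

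Some of the members at 0 share much of their sequence with other genes, 5 of them at least 50% of it. For the 64 members in the annotation, all windows of 50 bases of the reference transcript were searched in all other genes. At least 10% of the windows occurred elsewhere for 20 of the 36 annotated members at 0, for 4 of 14 below the floor and for 2 of 14 tested. The alpha-1-antitrypsin genes Serpina1a to Serpina1e, all at 0, shared 35.6% to 79.3%. The sources used here do not give the read length or how reads matching several genes were counted, and the part of this in the zeros was not tested. Another 10 members at 0 shared under 1% of their windows, among them Serpinb12, Serpinb13, Serpinb7, Serpina5 and Serpinf2, the plasmin inhibitor of plasma. Among the tested members, Serpina3g shared 16.02%, of which 8.67% with its neighbour Serpina3h. Serpinb6a shared 13.1%, 10.1% with the gene 1110046J04Rik, and Serpina3n shared 6.90%. Reads from the shared windows of these 3 cannot be assigned with certainty.

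Several clade b members of the chromosome 1 cluster had few reads or none. Serpinb2, the mouse counterpart of human SERPINB2, had 34 reads in DMSO replicate 2 and 0 in the other 3 libraries. Serpinb10 had 18 reads in DMSO replicate 1 alone, and Serpinb3a to Serpinb3d, relatives of the human squamous cell carcinoma antigens, had 0 in all libraries and shared 12.2% to 15.1% of their windows with other genes. Serpinb5 (maspin), a serpin of basal and other stratified epithelial cells, had 24 and 11 reads with DMSO and 25 and 0 with the inhibitor. Serpinb11 was the 1 clade b member with reads only in inhibitor libraries, at 7 and 10, too few to test.

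The other members below the floor are mostly known from plasma or brain. The antithrombin gene Serpinc1 had at most 15 reads, though 58.8% of its windows also occur in transcripts of Zbtb37. The hormone carrier genes Serpina6 (corticosteroid-binding globulin) and Serpina7 (thyroxine-binding globulin) reached 20 and 39 reads. Serpina12 (vaspin) had 28 reads in DMSO replicate 2 alone, and the neuroserpin gene Serpini1 had 15 and 19 reads in replicate 2 of each group. Of these 14 low members, 5 had reads in only 1 library, as did 42.0% of the 3397 genes of the whole table that lay below the floor with some reads. Serpine3 was just below the floor, with 23.4 and 31.7 normalised reads with DMSO and 19.1 and 6.29 with the inhibitor, and Serpina3n was just above it.

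Clade e held the most abundant serpin. Serpine2 encodes protease nexin-1, a secreted inhibitor of thrombin and plasminogen activators that is held at the cell surface by heparan sulphate. It had 4880.2 and 5265 normalised reads with DMSO and 5187 and 4366 with the inhibitor. The lowest value was in inhibitor replicate 2, and the other inhibitor library lay between the DMSO libraries. The group means were 5073 ± 272 and 4776 ± 580.2 (SD, n = 2 each), and the log2 fold change was -0.091 ± 0.13 (SE), with a 95% interval from -0.36 to 0.18 (limma, adjusted p = 0.810). A change of more than 1.29-fold down or 1.13-fold up thus lay outside the interval.

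**Figure D2:**
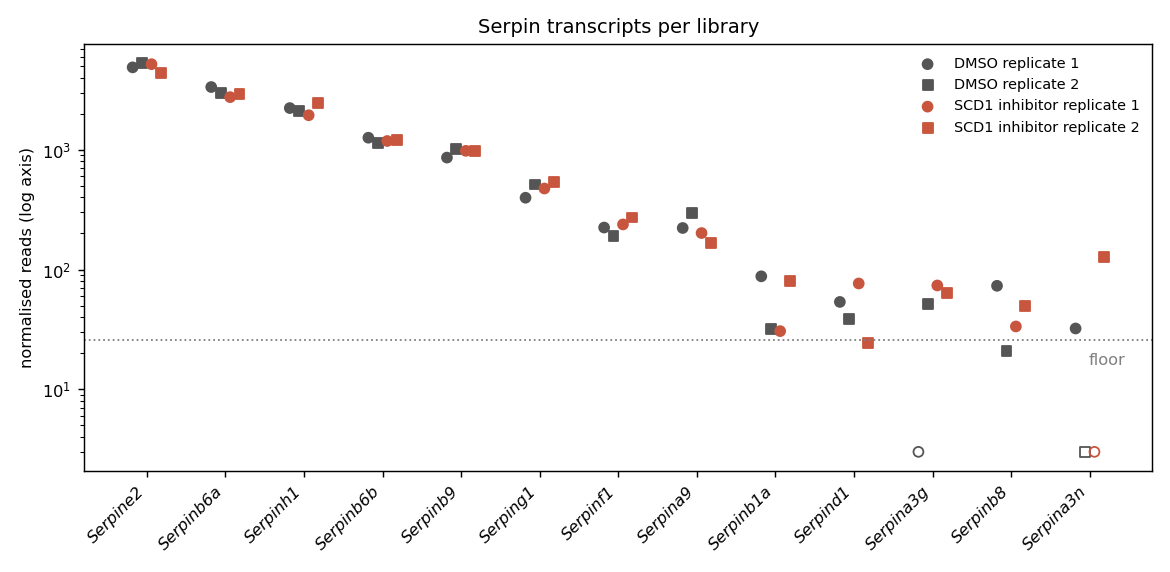
Normalised reads (y axis, log scale) of 13 tested serpins in each of the 4 libraries, in order of mean level; open symbols mark 0 reads and are drawn at 3. The 5 genes on the left vary by less than 1.3-fold over all libraries, while Serpina3n spreads widely within each group.

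Intracellular clade b serpins were the other abundant group. Serpinb6a, the counterpart of human SERPINB6, a cytosolic inhibitor of cathepsin G and trypsin-like proteases, had 3342 and 2960.2 normalised reads with DMSO and 2753 and 2947 with the inhibitor. Both inhibitor values were below both DMSO values, by a small margin. The log2 fold change was -0.14 ± 0.13 (SE, interval -0.43 to 0.15, limma adjusted p = 0.694).

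Serpinb6b, its close relative from the same cluster, had 1261 and 1130 normalised reads with DMSO and 1184 and 1217 with the inhibitor, so that the inhibitor values fell between the DMSO values. The difference was 0.0077 on the log2 scale (interval -0.37 to 0.39, limma adjusted p = 0.991). Serpinb9, which protects cells from granzyme B, the death-inducing protease of cytotoxic lymphocytes, had 861 and 1009 normalised reads with DMSO and 980.4 and 979.8 with the inhibitor. Here too the inhibitor values lay between the DMSO values, and the log2 fold change was 0.071 ± 0.20 (SE, interval -0.35 to 0.49, limma adjusted p = 0.911).

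The remaining tested clade b members were low. Serpinb1a, an inhibitor of neutrophil elastase and proteinase 3, had 87.7 and 31.7 normalised reads with DMSO and 30.6 and 80.8 with the inhibitor. Serpinb8, known to inhibit furin, had 73.1 and 20.8 with DMSO and 33.4 and 49.3 with the inhibitor. In both genes a replicate pair differed by more than the groups did. Their intervals, -1.37 to 1.25 and -1.36 to 1.31 on the log2 scale, leave room for changes of more than 2-fold in either direction.

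In clade h, Serpinh1 (HSP47), the endoplasmic reticulum chaperone that binds folded procollagen, was well above most of the family. Its values were 2230.1 and 2104 normalised reads with DMSO and 1943 and 2472 with the inhibitor, the inhibitor libraries lying on either side of the DMSO pair. The log2 fold change was 0.017 ± 0.16 (SE, interval -0.32 to 0.35, limma adjusted p = 0.976). The other collagen folding genes and the collagen chains, 14 listed and all tested, had 5 positive and 9 negative log2 fold changes (median -0.16) and none passed. The prolyl hydroxylase subunit P4hb had 20173 and 18054 normalised reads with DMSO and 14724 and 14133 with the inhibitor (log2 fold change -0.40 ± 0.11, SE, limma adjusted p = 0.0821). Col3a1, a fibrillar collagen of fibroblasts, had 288 and 871 against 1143 and 913 (0.98 ± 0.37, SE, adjusted p = 0.246).

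Serping1, the C1 inhibitor of complement and contact activation, belongs to clade g. Its values were 398 and 512 normalised reads with DMSO and 475 and 538 with the inhibitor, and the ranges of the groups overlapped. The log2 fold change was 0.15 ± 0.27 (SE, interval -0.43 to 0.74, limma adjusted p = 0.860). Serpinf1 of clade f encodes pigment epithelium-derived factor, an anti-angiogenic serpin without protease inhibition. It had 224 and 189 normalised reads with DMSO and 238 and 272 with the inhibitor, both inhibitor values above both DMSO values (0.27 ± 0.36, SE, interval -0.50 to 1.04, limma adjusted p = 0.794). Serpind1 (heparin cofactor II), a thrombin inhibitor of clade d, was low, with 53.6 and 38.7 normalised reads with DMSO and 76.4 and 24.1 with the inhibitor, which overlapped.

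Serpinh1, Serping1 and Serpinf1 are also made by fibroblasts, and fibroblast markers were present at a low level. The 7 markers summed to 889.9 and 2155 normalised reads with DMSO and 2489 and 2516 with the inhibitor. All 5 tested had positive log2 fold changes (median 0.72), none passed, and the other 2, Lum and Tcf21, were at 0 in all libraries. The tested markers were Col1a1, Col1a2, Col3a1, Dcn and Pdgfra. The part of these cells in the values of the 3 serpins was not tested, and in sorted bulk samples fewer cells of a type and less RNA per cell cannot be told apart.

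Clade a gave the largest differences of the family, none of them past the test. Serpina9 (centerin), known from germinal centre B cells, was its most abundant member, with 222 and 297 normalised reads with DMSO and 202 and 166 with the inhibitor. The groups did not overlap, and the log2 fold change was -0.44 ± 0.37 (SE, interval -1.24 to 0.36, limma adjusted p = 0.655). The 7 lymphocyte markers, which include the B cell genes Cd79a and Ms4a1, had no member above the floor, with sums of 27.3 to 38.8 normalised reads per library. The part of such cells in the Serpina9 values was not tested.

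Serpina3g (SPI2A), an intracellular inhibitor of lysosomal cysteine cathepsins, had 0 and 51.5 normalised reads with DMSO and 73.6 and 64.0 with the inhibitor. Its difference between groups was 1.08 ± 0.66 on the log2(value + 25.8) scale (SE, interval -0.35 to 2.51, limma adjusted p = 0.509), 1.96 with 0.25 times the pseudocount and 0.44 with 4 times. On the recovered reads it was 1.39 by edgeR and 1.42 by DESeq2. It rested on the DMSO library at 0: without DMSO replicate 1 the value was 0.29 (adjusted p = 0.852), and without DMSO replicate 2 it was 1.87 (adjusted p = 0.161). Serpina3n, a secreted relative of alpha-1-antichymotrypsin, had 32.2 and 0 normalised reads with DMSO and 0 and 127 with the inhibitor. A library of each group was at 0, and the log2 fold change of 0.70 ± 0.85 (SE, limma adjusted p = 0.774) became -0.58 without inhibitor replicate 2 and 1.98 without inhibitor replicate 1. It was 1.97 by edgeR and 1.98 by DESeq2, above the values of Serpina3g by the same tools.

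**Figure D3:**
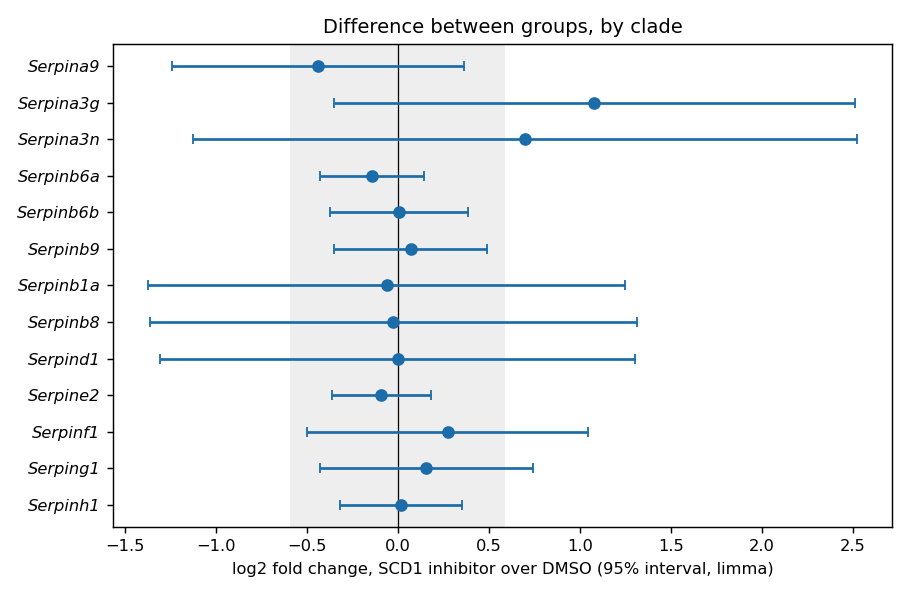
Log2 fold change of 13 tested serpins, SCD1 inhibitor over DMSO (x axis), with 95% intervals from limma, by clade from a (top) to h (bottom). All intervals include 0, and those of Serpinb6a, Serpinb6b, Serpinb9, Serpine2 and Serpinh1 stay within the grey band of 1.5-fold.

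Across the family the direction was balanced. Of the 14 tested members, 7 had positive and 7 negative log2 fold changes, with a median of 0.0030, beside 7000 positive and 6810 negative with a median of 0.0056 over all genes tested. The median size of the difference was 0.12 for the serpins and 0.23 for all genes. Values of the groups did not overlap in 4 members (Serpina9, Serpina3g, Serpinb6a and Serpinf1), against 44.9% of all genes tested, and these 4 differed in direction.

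Precision differed with the level. The 5 members with a mean of 500 or more normalised reads all had 95% intervals within 1.5-fold in either direction, as did 52.2% of the 8208 genes tested at that level. Serpinb9, the lowest of the 5, had a mean of 957, so the levels of the 2 sets were not matched. Serping1, with a mean of 481, lay just under the cut, and its interval reached 1.67-fold. No member with a mean under 100 had such an interval, and neither did any of the 1978 genes tested at that level. For Serpinb1a, Serpinb8, Serpind1, Serpina3g and Serpina3n the upper limits lay at 2.38-fold or more, so smaller rises lay within the intervals. Their lower limits ran from a fall of 1.27-fold for Serpina3g to 2.58-fold for Serpinb1a. The limits of these low members are on the log2(value + 25.8) scale, and the added 25.8 shrinks folds at such levels. They therefore do not bound the folds of the transcripts themselves. In 12 of the 14 members the larger gap between replicates of a group exceeded the difference between the group means, as in 68.2% of all genes tested. The exceptions were Serpina9 and Serpinf1.

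**Figure D4:**
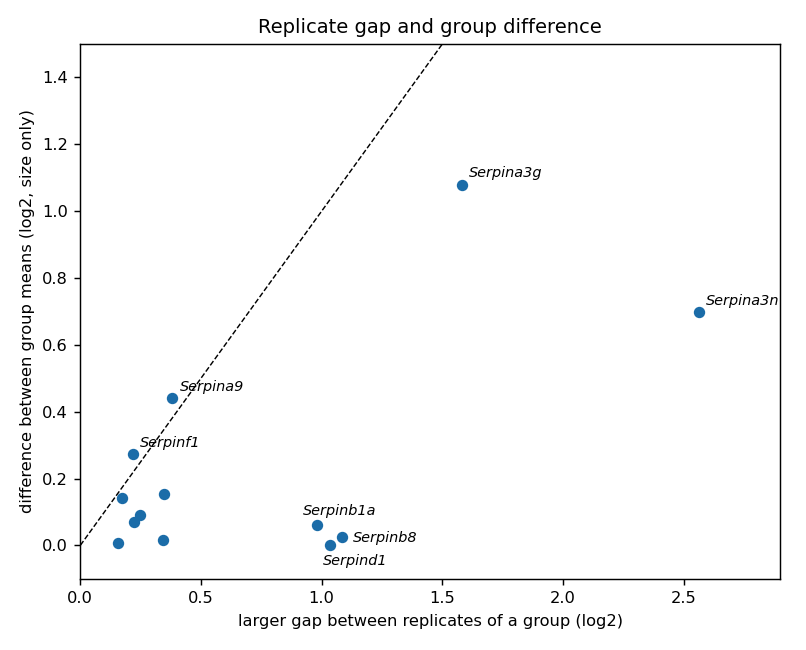
Size of the difference between group means (y axis, log2) against the larger of the gaps between replicates within a group (x axis, log2) for 13 tested serpins, with equality as a dashed line. Serpina9 and Serpinf1 lie above the line and the other 11 below it, with Serpina3n farthest to the right.

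Per length of transcript, Serpine2 and Serpinb6a shared the top of the order. Serpine2 had a mean of 2228 normalised reads per kilobase (range over the libraries 1976 to 2383) and Serpinb6a 1995 (1830.4 to 2222), and their ranges overlapped. Serpinh1 followed at 962 (854 to 1087) and Serpinb6b at 546 (515 to 575), each with a range apart from those of its neighbours. Serpinb9 at 276 (248 to 291) and Serping1 at 272 (225 to 304) could not be ordered. Serpinf1 had 126 (103 to 148) and Serpina9 62.1 (46.4 to 83.3), and the other 6 tested members had means of at most 30.1. The length was that of the GENCODE transcript with the longest coding sequence, so a gene using another transcript would shift.

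A list of proteases, among them known targets of serpins, was compared next. Of 42 listed proteases, 25 were tested, 12 with positive and 13 with negative log2 fold changes (median -0.0025). Masp2, the lectin pathway protease that Serping1 blocks, was the 1 of 25 that passed and rose, beside 1.36% called higher among all genes tested, with 923 and 625 normalised reads with DMSO and 1489 and 1586 with the inhibitor (log2 fold change 0.99 ± 0.21, SE, limma adjusted p = 0.0325). That call ended without SCD1 inhibitor replicate 1 (1.04, adjusted p = 0.419), without SCD1 inhibitor replicate 2 (0.95, adjusted p = 0.615) and under edgeR's quasi-likelihood test (0.98, adjusted p = 0.137). It also ended with no floor (adjusted p = 0.0872) and without limma's intensity trend (0.453). The call held with DESeq2 on the recovered reads (adjusted p = 0.00498) and in the other alternatives that kept all libraries. Next by p was Ctsb, the lysosomal cathepsin B, with 7489 and 7622 against 6371 and 6063 normalised reads (-0.28 ± 0.11, SE, adjusted p = 0.266). Tmprss2, a membrane serine protease of airway epithelium, was the most abundant and had 12524 to 13269 normalised reads in the 4 libraries (-0.0025, adjusted p = 0.994).

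Of the 42 listed proteases, 12 had no reads in any library. Plau (urokinase), a target of Serpine2, and Plg (plasminogen) were among them, as were the leukocyte and mast cell proteases Elane, Ctsg, Gzmb, Cma1, Mcpt4, Tpsab1 and Tpsb2. The leukocyte proteases Prtn3 and Gzma had some reads below the floor, with 0 and 11 against 20 and 7 recovered reads for Prtn3 and 28 and 0 against 7 and 13 for Gzma. Plat (tissue plasminogen activator) had 26.3 and 134 normalised reads with DMSO and 28.7 and 76.6 with the inhibitor. F2 (prothrombin), the target of Serpine2 and Serpind1, had 66.3 and 34.7 against 25.8 and 109. The furin gene, Furin, was well above its inhibitor Serpinb8, with 3448 and 3705 against 2768 and 3110.4 normalised reads (-0.28 ± 0.13, SE, limma adjusted p = 0.354).

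Receptors and cofactors through which serpins and proteases act gave 2 calls among 15 tested of 17 listed, both lower with the inhibitor, beside 0.427% called lower among all genes tested, with 7 positive and 8 negative log2 fold changes (median -0.10). Sdc1 (syndecan 1), a heparan sulphate proteoglycan of epithelial cells, had 11370 and 11495 normalised reads with DMSO and 7923 and 8636 with the inhibitor (-0.47 ± 0.11, SE, limma adjusted p = 0.0468). Lrp2 (megalin), an endocytic receptor that takes up serpin-protease complexes, had 2089 and 2034 against 1309 and 1278 (-0.66 ± 0.15, SE, adjusted p = 0.0476). For Sdc1 the adjusted p was 0.545 when inhibitor replicate 1 was left out, 0.503 when inhibitor replicate 2 was, 0.133 by edgeR and 0.0538 with libraries scaled to equal totals. The same alternatives gave 0.481, 0.641, 0.128 and 0.0531 for Lrp2, so that both calls ended, as they did with no floor (0.103 and 0.0882), without the trend (0.474 and 0.453) and with the smaller pseudocount (0.0533 and 0.0549). The log2 fold changes under all these alternatives stayed between -0.53 and -0.40 for Sdc1 and between -0.68 and -0.64 for Lrp2. Where an inhibitor library was left out, the lone inhibitor library was assumed to vary like the DMSO pair. With DESeq2 on the recovered reads both calls held (adjusted p = 0.000339 for Sdc1 and 0.0122 for Lrp2). They also held with TMM scaling, the replicate block, the larger pseudocount and the higher floor. F3 (tissue factor), the starter of clotting, had 4267 and 3520.2 against 4602 and 5561 normalised reads (0.38 ± 0.14, SE, adjusted p = 0.225).

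Protease inhibitors outside the serpin family had no call either. Of 28 listed, 8 were at 0 in all libraries and 15 were tested, 3 with positive and 12 with negative log2 fold changes (median -0.17). Summed per library they had 49730.1 to 59731 normalised reads, against 13374 to 13989 for all serpins. Most came from the airway protein Wfdc2 (18853 and 24356 with DMSO, 19318 and 18963 with the inhibitor) and from the matriptase inhibitor Spint2 (15859 and 17308 against 14763 and 14596). The smallest p values belonged to Itih4 and Itih2, heavy chains of the inter-alpha-trypsin inhibitor family. Itih4 had 1056 and 1152 normalised reads with DMSO and 586 and 623 with the inhibitor (-0.84 ± 0.21, SE, limma adjusted p = 0.0595), and Itih2 had 520.5 and 379 against 245 and 189 (-0.96 ± 0.33, SE, adjusted p = 0.195).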

How the data were processed

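The authors deposited 1 table of 25124 gene symbols by 4 libraries. Its signal values, as deposited, had been made by scaling each library's gene counts with a single size factor. This was read from the values: 100% were within 0.01 of a whole multiple of 1 step per library, and the inverse steps (0.953 to 1.05) equalled median-of-ratios size factors. In DMSO replicate 2 the step is within 1% of 1, so its unit rests on the size factor. Libraries held 24591122 to 27013663 reads once divided by the step. HOMER, DESeq2 and mm10 are named, with no role, per the submitters' processing notes. Neither aligner nor use of strand is stated, so reads of antisense or overlapping genes and near-identical copies are uncertain.

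Values were tested as log2(value + 25.8) with limma 3.58.1 in R 4.3.3 (intensity trend, group as the only term, prior degrees of freedom 11.2). The fit covered all 13810 genes with a mean of at least 25.8, with Benjamini-Hochberg adjustment over all of them and a threshold of 0.05. Counting alone gives an error of 19.7% for a single library at that floor; reads can be PCR copies, so this covers counting error only. On the recovered reads edgeR 4.0.16 called 10 genes of 15299 and DESeq2 1.42.0 called 484. The fit was also run on simulated data with a spread set in advance, where only genes well above the floor were changed. That run does not bear on members near the floor. Python 3.11.15, pandas 2.3.3 and numpy 2.4.6 made the tables, matplotlib 3.10.9 the figures. Coordinates and transcripts are from GENCODE M21 (64 of 65 members matched by symbol).

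Counts over the family cover all members, but the values of 1 tested member are not reported here. Members and lists were chosen with earlier results of these data known. Named were the 2 most abundant tested members of each clade, the 5 with the highest and the 5 with the lowest log2 fold change, the members next to the floor, others for their clade (Serpinb8 among them), and, from each function list, up to 4 genes that passed, at least the 2 of smallest p and, after their values were seen, Prtn3, Gzma, Plau, Plg, Plat, F2, F3, Furin, Tmprss2, Elane, Ctsg, Gzmb, Cma1, Mcpt4, Tpsab1, Tpsb2, Wfdc2 and Spint2. Of the 15 cell marker lists, results for the epithelial, fibroblast and lymphocyte lists are given above. Counts and medians of the others are given with the closing observations. Members are named in full for the fibroblast list only. Nothing says that the samples come from separate animals, so p values measure the spread between these samples. With 2 against 2, an exact two-sided permutation test cannot go below p = 0.333. Alternatives were a block for the replicate number, smaller and larger pseudocounts, 2 other floors, 2 other scalings, no trend, edgeR, DESeq2 and leaving out each library.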

Additional observations from a re-analysis of the deposited data

How the results depend on the processing

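No serpin passed in any of the 14 alternatives. Among the 13 members with values reported here, the smallest adjusted p with all libraries kept was 0.460 (Serpina3g, limma with the replicate block). With DESeq2 some members had no adjusted p and so could not pass. Of 177 log2 fold changes recomputed for 13 members, 21 changed sign. They were 0.018 for Serpinb8 with 0.25 times the pseudocount and, for Serpind1, 0.020 with 4 times the pseudocount, 0.0013 with equal totals, 0.12 with edgeR and 0.13 with DESeq2. Serpinb6b had -0.0026 with TMM scaling and -0.0046 with edgeR. The others came with a library left out, where the range was -0.070 to 0.085 for Serpinb6b, -0.041 to 0.18 for Serpinb9, -0.55 to 0.43 for Serpinb1a, -0.57 to 0.52 for Serpinb8 and -0.52 to 0.51 for Serpind1. It was -0.21 to 0.033 for Serpine2, -0.018 to 0.33 for Serping1, -0.16 to 0.19 for Serpinh1 and -0.58 to 1.98 for Serpina3n. Serpina9, Serpina3g, Serpinb6a and Serpinf1 kept their sign in all alternatives that gave a value. Most of this was fixed in advance. The groups did not overlap in these genes, so leaving out a library could not reverse the sign. The block, the other floors and the missing trend leave a log2 fold change as it is.

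Over all genes, 188 were called higher and 59 lower. The counts were 51 and 13 with no floor, 0 and 0 without the intensity trend (1423 at an unadjusted p under 0.05), 7 and 3 with edgeR and 339 and 145 with DESeq2. With a library left out they ran from 0 to 616 higher and from 5 to 179 lower, the lowest without SCD1 inhibitor replicate 1 and the highest without DMSO replicate 1. The cause was not tested. With the replicate number as a block, 469 were higher and 205 lower, and no serpin was called; the numbers are shared labels only, and the replicate gaps of the groups correlated across 13810 genes at r = 0.0734.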

Other observations

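The other cell marker lists show where the serpin values sit among changes of cell markers. Goblet cell markers had 9 tested genes, all negative (median log2 fold change -1.86), and 6 were lower by limma at an adjusted p under 0.05, where 0.427% of all genes tested were lower and 1.36% higher. Their sums were 85534 and 62821 normalised reads with DMSO and 15051 and 27246 with the inhibitor. Of 7 tested club cell markers 3 were lower (median -0.25), of 7 alveolar type 2 markers 3 (median -0.53), of 6 alveolar type 1 markers 1 (median -0.29) and of 5 mesothelial markers 1 (median 0.0011). Of 7 ciliated cell markers 1 was higher (median 0.14). None passed among 7 tested endothelial markers (median -0.15), whose sums were 4464 and 13158 normalised reads with DMSO and 4714 and 6409.6 with the inhibitor, nor among 5 basal (median -1.30), 7 smooth muscle and pericyte (0.058), 6 macrophage and monocyte (0.25), 1 neutrophil (0.28) and 2 eosinophil and mast cell markers (-0.57).

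The basal markers summed to 5244 and 3898 normalised reads with DMSO and 923 and 3084 with the inhibitor, while the basal cell serpin Serpinb5 had 24 and 11 against 25 and 0 recovered reads.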
